A study of Mus musculus with 13 samples.

Results

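The T cell receptor constant genes Trac, Trbc1 and Trbc2 and the pre-T cell receptor gene Ptcra were followed through thymocyte stages and through the immune cell types of unrelated samples. These 4 genes, of 57010 genes listed, were chosen by name from the gene tables of both split-pool experiments. No rule on their values was used, but earlier results of these data were known when they were chosen. UMIs, the molecules counted per gene and cell, came from 20 tissue samples of the Parse WT kit, 4 of them thymic, and from 4 thymic samples of the smaller Parse Mini kit. Per the study's methods, the thymic samples of WT were separated lobes of thymi from 2 female C57BL/6N mice aged 2 months. They were dissociated with collagenase/dispase and DNase I, fixed and barcoded by split-pool rounds, with no treatment. The Mini experiment repeated the same set-up as a validation, for which the study describes isolating thymus from 2 young female mice of this strain. The 16 other samples were non-thymic and unrelated to the thymic ones per the study, and the labels do not give their tissues or conditions, so they were described by their lowest, median and highest values and entered no test. Each lobe was treated as 1 sample and as a block in the tests. The adjusted p-values therefore measure how stage differences vary between lobes, and lobes of 1 mouse are not independent animals.

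A T cell receptor is built from an alpha and a beta chain, each with a rearranged variable part and a constant part. In a double-negative (DN) thymocyte the beta chain is rearranged first and pairs with the invariant pre-TCR alpha chain, the product of Ptcra, to form the pre-TCR, whose signal is followed by a burst of division and entry into the CD4+CD8+ double-positive (DP) stage. In resting DP cells the alpha locus is rearranged and transcribed, and cells with a useful alpha-beta receptor are selected and mature into single-positive cells. Trac encodes the alpha constant part, while Trbc1 and Trbc2 encode interchangeable beta constant parts that lie one after the other on the same chromosome.

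In the GRCm38 (mm10) annotation, Ptcra, a protein-coding gene, lies at chr17:46755663-46763712 on the minus strand. The constant genes lie on the plus strand, Trbc1 at chr6:41538218-41539881, Trbc2 at chr6:41546730-41548352 and Trac at chr14:54220521-54224206. Trbc1 and Trbc2 each have 4 exons, and their sequences decide how well reads can be assigned to either gene. The 375 coding bases of exon 1 differed at 1 base only, C260A, with the Trbc1 base first and positions counted from the start of exon 1. The stretch of 60 bases around it is shown with the differing base in capitals, from chr6:41538448-41538507 for Trbc1 and chr6:41546960-41547019 for Trbc2.
Trbc1 exon 1: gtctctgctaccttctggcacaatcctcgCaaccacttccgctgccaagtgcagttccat
Trbc2 exon 1: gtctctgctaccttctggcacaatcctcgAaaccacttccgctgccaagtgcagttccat

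Exon 3 differed at 15 of 107 bases, again in capitals, and lies at chr6:41539229-41539335 in Trbc1 and at chr6:41547772-41547878 in Trbc2. It is shown as a coding stretch in which a read can tell the genes apart, beside the differences in the other exons given below.
Trbc1 exon 3: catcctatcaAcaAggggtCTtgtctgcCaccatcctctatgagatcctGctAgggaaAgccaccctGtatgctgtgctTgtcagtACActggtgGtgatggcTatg
Trbc2 exon 3: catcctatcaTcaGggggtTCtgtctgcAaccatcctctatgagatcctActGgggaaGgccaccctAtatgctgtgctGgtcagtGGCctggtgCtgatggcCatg

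Exons 1 to 4 were identical in 99.7%, 83.3%, 86.0% and 56.8% of aligned bases. Of all stretches of 100 bases in the spliced exons, 28.7% of those in Trbc1 and 30.9% of those in Trbc2 occurred in the other gene. How the counting software placed reads from such stretches was not given in the sources used here, so the split between Trbc1 and Trbc2 is uncertain, and their values are also given as a sum.

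The 250 bases before the annotated start of Ptcra (RefSeq, GRCm38.p6, chr17:46763713-46763962, minus strand) are shown because Ptcra transcription is known to depend on E proteins such as those of Tcf3 and Tcf12, which bind E-boxes, CANNTG on either strand. Both matches, in capitals, were CAGCTG.
Ptcra upstream: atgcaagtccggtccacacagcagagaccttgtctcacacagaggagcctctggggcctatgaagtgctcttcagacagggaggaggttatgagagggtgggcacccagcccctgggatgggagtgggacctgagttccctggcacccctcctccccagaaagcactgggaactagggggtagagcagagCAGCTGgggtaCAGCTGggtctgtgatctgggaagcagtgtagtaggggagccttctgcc

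Of 32851 RefSeq promoters cut to the same length, 66.2% held at least 1 CANNTG and 31.8% at least 2, while 13.0% held at least 1 CAGCTG and 1.26% at least 2. A match of letters is a description of the window only. Of the 4 genes, Ptcra was the 1 with an entry in the promoter table.

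After the study's limits on UMIs and mitochondrial share and removal of the cells with the highest doublet scores, 37402 of 41838 cells were used in the WT thymus, 18311 of 20085 in the Mini thymus and 77334 of 86786 in the 16 other samples. Total UMIs ran from 30450800 to 124107000 per WT thymic sample, from 28057200 to 33264100 per Mini sample and from 5405080 to 91172400 per other sample. Of 18725 combinations of well barcodes in the Mini cells, 16.1% also occurred among the WT cells, and 19.2% of the WT combinations occurred in more than 1 sublibrary, where they were counted as different cells. The 4 genes differed widely in depth: over all thymic cells used, Trbc1 gave 66921 UMIs in WT and 32918 in Mini, Trbc2 46859 and 23027, Trac 16332 and 8811, and Ptcra 810 and 312.

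Stages were taken from clusters formed without Ptcra and without 270 receptor genes and segments, Trac, Trbc1 and Trbc2 among them. The levels of the 4 genes below thus did not shape the stages. The DN cluster was led by Il2ra, the interleukin-2 receptor alpha chain, at 790 ± 307 CPM (CPM, a gene's UMIs scaled to a fixed total of UMIs outside ribosomal RNA, mean ± SD, n = 4) in WT against 12.1 to 43.4 CPM in the later stages. The cycling clusters held the highest Mki67, a proliferation gene, at 1572 ± 311 CPM, the resting DP clusters the highest Rag1, a recombinase gene, at 1597 ± 272 CPM, and the mature clusters the highest Ccr7, a homing receptor gene, at 360 ± 91.3 CPM. Between resting DP and mature cells stood clusters with raised Tox, Itm2a and Cd5, called selected DP. The mature class rested on CD4 single-positive markers, and no separate CD8 single-positive cluster formed at this resolution. Both mature clusters also raised 6 of 8 CD8 single-positive markers. With finer clusters (resolution 2), a cluster of 730 cells was named CD8 single-positive, so the mature class may hold CD8 cells too. DN cells numbered 1126 in WT and 474 in Mini, cycling cells 7794 and 3255, resting DP cells 15035 and 8589, selected DP cells 6408 and 3264, and mature cells 3915 and 1556.

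Thymic B cells and antigen-presenting cells (APC), which do not make a T cell receptor, served as the comparison for each stage. They held Trbc1 at 259 ± 169 and 278 ± 140 CPM and Trac at 70.1 ± 45.0 and 62.6 ± 23.9 CPM in WT (n = 4). In Mini, Trbc1 stood at 231 ± 117 and 256 ± 114 CPM and Trac at 71.3 ± 19.9 and 48.7 ± 17.6 CPM. An erythroid-like class with few UMIs per cell, named from 5 of 8 erythroid markers, reached or passed the DN level for some genes. Pooled over both kits it held 472 CPM of Trbc1, 393 of Trbc2 and 96.0 of Trac, against 490, 267 and 69.3 CPM in DN cells. Cd3e, a T-lineage signalling chain, stood at 121 ± 37.9 CPM in WT thymic B cells against 258 ± 66.4 CPM in DN cells. In the other direction, Pax5, a B-lineage factor, stood between 10.9 and 16.7 CPM in the 5 thymocyte stages of WT and between 0 and 0.60 CPM in those of Mini, against 838 ± 512 CPM in WT thymic B cells. Receptor transcripts were thus counted in cell types that do not make the receptor, and their source was not tested.

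**Figure D1:**
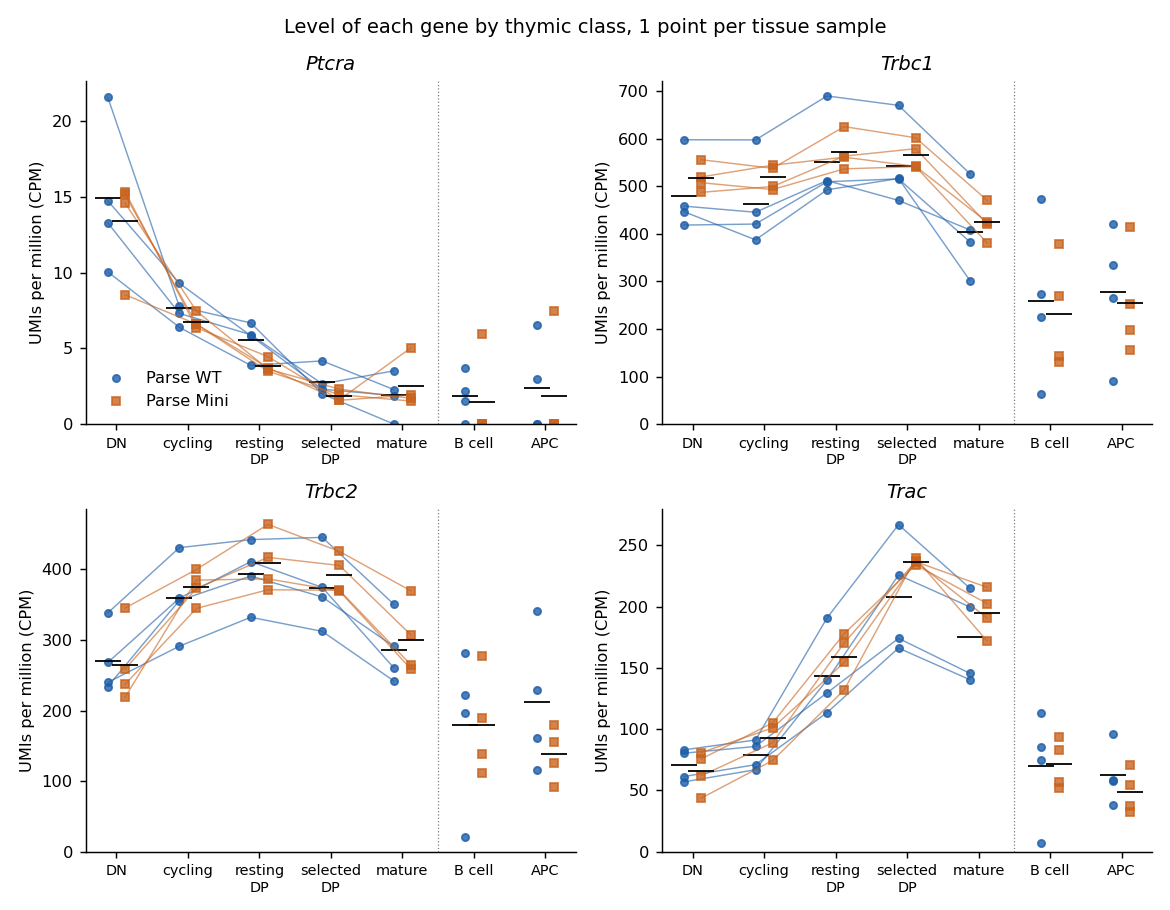
CPM of Ptcra, Trbc1, Trbc2 and Trac (y axis, own scale per gene) by thymocyte stage and in thymic B cells and APC (x axis), with a point for each of 4 samples per kit, lines joining the stages of a sample and a bar at the mean. Ptcra is highest in DN in every sample and Trac in selected DP in every sample. From DN to resting DP, Trbc2 rises by a mean ratio of 1.47 in WT and 1.57 in Mini, and Trbc1 by 1.15 and 1.10.

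Ptcra was highest in DN cells and fell with each step to resting DP. It stood at 14.9 ± 4.85 CPM in DN, 7.69 ± 1.22 in cycling, 5.57 ± 1.19 in resting DP, 2.78 ± 0.968 in selected DP and 1.92 ± 1.46 in mature cells of WT (n = 4), and at 13.4 ± 3.26, 6.75 ± 0.487, 3.82 ± 0.431, 1.85 ± 0.343 and 2.54 ± 1.67 CPM in Mini. DN exceeded cycling and cycling exceeded resting DP in all 4 samples of each kit.

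By sample, Ptcra in DN was 21.6, 10.0, 14.7 and 13.3 CPM in WT samples 1 to 4 and 8.54, 15.2, 14.6 and 15.3 CPM in Mini samples 1-A, 1-B, 2-A and 2-B. In cycling cells it was 7.76, 6.39, 9.30 and 7.31 CPM in WT and 6.60, 6.59, 7.46 and 6.36 CPM in Mini. The DN and cycling values did not overlap in either kit. In resting DP cells it was 6.68, 3.87, 5.83 and 5.90 CPM in WT and 3.71, 3.49, 3.63 and 4.45 CPM in Mini, and the cycling and resting DP ranges overlapped in WT but not in Mini.

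The selected DP and mature values of Ptcra reached those of thymic B cells and APC. Thymic B cells held 1.86 ± 1.54 CPM in WT and 1.48 ± 2.96 in Mini, and APC 2.37 ± 3.10 and 1.87 ± 3.74, each on at most 9 UMIs per kit. Pooled over both kits, mature cells gave 55 Ptcra UMIs, or 2.48 CPM (95% exact Poisson interval 1.87 to 3.22, counting error only), and selected DP cells 69 UMIs, or 2.55 CPM (1.98 to 3.23), while thymic B cells gave 4 UMIs, or 1.81 CPM (0.493 to 4.63). With the highest 30% of doublet scores left out in WT and 20% in Mini, selected DP cells held 1.52 ± 0.580 and 0.654 ± 0.773 CPM, on 15 and 4 UMIs, and gated mature cells held 0.418 ± 0.836 CPM on 1 UMI in WT. At this depth mature and selected DP cells were not distinguishable from B cells, whereas DN cells at 13.4 CPM (11.4 to 15.7) were above them. The erythroid-like class with few UMIs per cell held 6.53 CPM (3.48 to 11.2) on 13 UMIs, overlapping the interval of resting DP cells.

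Trbc1 changed less between the stages than Ptcra and Trac. In WT it stood at 481 ± 80.2 CPM in DN, 463 ± 93.0 in cycling, 551 ± 93.1 in resting DP, 544 ± 87.5 in selected DP and 405 ± 93.0 in mature cells (n = 4), and in Mini at 518 ± 28.8, 519 ± 26.1, 572 ± 37.9, 566 ± 29.8 and 425 ± 36.7 CPM. Mature cells were the lowest stage in all 4 samples of each kit, and resting or selected DP the highest, each in 2 of 4. The neighbours DN and cycling, and resting and selected DP, overlapped between samples. For DN this depended on which cells were kept: with gated cells Trbc1 stood at 366 ± 66.4 CPM in DN and 507 ± 28.0 in cycling cells of Mini, with no overlap, and at 434 ± 62.3 and 459 ± 97.4 CPM in WT, with overlap.

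WT sample 2 held more Trbc1 than the other WT samples in every stage, with 691 CPM in resting DP against 493, 512 and 510 CPM in samples 1, 3 and 4, and 527 CPM in mature cells against 302, 409 and 383 CPM. It was also high in thymic B cells, at 474 CPM against 62.9, 226 and 275 CPM. In Mini, resting DP cells held 626, 537, 562 and 564 CPM and mature cells 471, 381, 425 and 421 CPM, with no overlap.

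Trbc2 was lowest in DN or mature cells and highest in DP cells. It stood at 270 ± 47.9 CPM in DN, 359 ± 57.1 in cycling, 394 ± 46.4 in resting DP, 373 ± 55.0 in selected DP and 286 ± 47.6 in mature cells of WT, and at 265 ± 56.0, 376 ± 23.3, 410 ± 40.8, 393 ± 27.6 and 300 ± 51.1 CPM in Mini. By sample, DN cells held 268, 338, 234 and 240 CPM in WT and 345, 219, 237 and 259 CPM in Mini, and cycling cells 359, 431, 356 and 291 CPM and 400, 385, 345 and 373 CPM. The rise from DN to cycling was seen in all 8 samples although the ranges overlapped in WT and met in Mini. At the low end of the order, DN was the lowest stage in 3 of 4 WT and 4 of 4 Mini samples, and mature in 1 of 4 WT samples. The means of DN and mature cells lay within 1 SD of each other, and their difference within samples was not tested. Thymic B cells held 180 ± 112 CPM in WT and 179 ± 73.1 in Mini.

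In the means, Trac showed the opposite order to Ptcra from DN to selected DP cells. It stood at 70.5 ± 13.2 CPM in DN, 78.7 ± 11.6 in cycling, 143 ± 33.3 in resting DP, 208 ± 47.2 in selected DP and 175 ± 37.7 in mature cells of WT (n = 4). The Mini values were 65.5 ± 16.6, 92.4 ± 13.8, 159 ± 20.3, 237 ± 2.19 and 195 ± 18.6 CPM. In each of the 8 samples Trac was higher at each step up to selected DP and lower again in mature cells.

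By sample, Trac in cycling cells was 66.9, 85.9, 91.2 and 71.0 CPM in WT and 105, 88.9, 101 and 74.4 CPM in Mini. In resting DP cells it was 140, 130, 191 and 113 CPM in WT and 178, 170, 154 and 132 CPM in Mini, with no overlap with cycling cells in either kit. In selected DP cells it was 226, 174, 267 and 166 CPM in WT and 234, 237, 237 and 239 CPM in Mini. In mature cells it was 200, 145, 215 and 140 CPM in WT and 202, 191, 216 and 172 CPM in Mini.

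The DN level of Trac overlapped that of thymic B cells and APC. DN cells held 57.0, 80.4, 83.1 and 61.4 CPM in WT and 75.6, 61.9, 80.9 and 43.7 CPM in Mini, and thymic B cells were above them in 3 of 4 samples of each kit. APC were below DN cells in 3 of 4 WT samples and 4 of 4 Mini samples, with mean ratios of APC to DN of 0.874 ± 0.223 and 0.738 ± 0.145. B cells also exceeded cycling cells in 2 of 4 WT samples and in 0 of 4 Mini samples. With the 30% of cells highest in doublet score left out, DN cells of WT held 19.6 ± 11.97 CPM of Trac (42.3 ± 19.6 in Mini, with the highest 20% left out), and DN cells gated on Il2ra without Cd4 or Cd8b1 UMIs held 26.8 ± 18.4 CPM in WT and 26.7 ± 27.6 in Mini. The DN value of Trac therefore depended on which cells were kept, while Ptcra under the same gates was 19.4 ± 7.53 and 17.5 ± 1.86 CPM.

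Levels were compared between genes per kilobase of exon. In resting DP cells of WT, Trbc1 stood at 736 ± 124, Trbc2 at 569 ± 67.0, Trac at 153 ± 35.6 and Ptcra at 4.34 ± 0.931 CPM per kb (n = 4). The order Trbc1, Trbc2, Trac, Ptcra held in all 5 stages and all samples of both kits except in cycling cells of 1 WT sample, where Trbc2 was above Trbc1. Even in DN cells, where Ptcra peaked, it stood at 11.6 ± 3.78 CPM per kb against 642 ± 107 for Trbc1.

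The step from DN to cycling cells was compared to ask how pre-TCR and receptor transcripts change where the pre-TCR signal is followed by division. Ptcra fell by 0.74 ± 0.22 (log2, ± SE) in WT and by 0.92 ± 0.28 in Mini, with adjusted p of 0.0075 and 0.0071 (edgeR's quasi-likelihood test, Benjamini-Hochberg, sample as block). Trbc2 rose by 0.49 ± 0.05 in WT (adjusted p = 7.7e-09) and by 0.57 ± 0.07 in Mini (adjusted p = 2.4e-10). The difference in Trbc1 was 0.04 ± 0.06 and 0.06 ± 0.05, with adjusted p of 0.61 and 0.38. In WT its sign is not settled, since the mean CPM was lower in cycling than in DN cells, in 3 of 4 samples, and the difference was -0.05 when scaled by total UMIs alone. With gated cells the Trbc1 difference in Mini was 0.61, with adjusted p = 1.1e-05. Trac rose in Mini, by 0.55 ± 0.12 (adjusted p = 1.4e-04), and its difference in WT was 0.22 ± 0.14 (adjusted p = 0.23).

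Of 12573 genes tested in WT, 22% were called higher and 16.8% lower at this step, and of 10893 in Mini 18.4% higher and 15.4% lower. Scaling by total UMIs alone turned the WT split from 2760 higher and 2108 lower to 1890 higher and 2751 lower. Without WT sample 4 the Ptcra difference was -0.79 with adjusted p = 0.057. The Trac difference in WT was 1.36 (adjusted p = 0.0024) without the 30% of cells highest in doublet score, 1.75 (adjusted p = 3.2e-07) with gated cells and 0.61 (adjusted p = 0.035) with at most 10000 UMIs per cell, and in Mini it was 2.12 with gated cells.

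The step from cycling to resting DP cells covers the start of alpha rearrangement. Trac rose by 0.81 ± 0.10 in WT (adjusted p = 4.6e-06) and by 0.84 ± 0.07 in Mini (adjusted p = 1.6e-15), the largest change among the 4 genes at this step. Trbc1 rose by 0.25 ± 0.05 (adjusted p = 1.5e-04) and 0.20 ± 0.04 (adjusted p = 4.4e-05), and Trbc2 by 0.14 ± 0.05 (adjusted p = 0.013) and 0.18 ± 0.05 (adjusted p = 0.0010). Ptcra fell by 0.48 ± 0.18 in WT (adjusted p = 0.026) and by 0.77 ± 0.23 in Mini (adjusted p = 0.0031).

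At this step 28.6% of genes were called higher and 34.2% lower in WT, and 29.8% and 33.4% in Mini, and the step shares its cycling samples with the step before. The WT fall of Ptcra was no longer called without WT sample 2, 3 or 4, with differences of -0.42, -0.38 and -0.49 and adjusted p of 0.096, 0.19 and 0.11, nor with DESeq2 (-0.45, adjusted p = 0.13). The Trbc2 rise was 0.090 in WT and 0.10 in Mini with at most 10000 UMIs per cell, with adjusted p of 0.26 and 0.16, and without the block 0.13 in WT and 0.18 in Mini, with adjusted p of 0.42 and 0.080.

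The step from resting DP to mature cells spans selection. Both beta genes fell, Trbc1 by 0.49 ± 0.06 in WT (adjusted p = 1.6e-08) and by 0.49 ± 0.05 in Mini (adjusted p = 2.6e-13), and Trbc2 by 0.50 ± 0.05 (adjusted p = 3.7e-10) and 0.51 ± 0.06 (adjusted p = 2.8e-11). Trac was higher in mature cells of all 8 samples, with a difference of 0.23 ± 0.11 in WT (adjusted p = 0.087) and 0.24 ± 0.07 in Mini (adjusted p = 0.0054). Ptcra fell by 1.22 ± 0.30 in WT (adjusted p = 0.0011), and its difference in Mini was -0.64 ± 0.39 (adjusted p = 0.19).

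At this step 24.5% of genes were called higher and 22.4% lower in WT, and 23.7% and 20.8% in Mini. Without WT sample 2 the Trac difference was 0.27 with adjusted p = 0.025, and without Mini sample 2-A it was 0.17 with adjusted p = 0.11. With gated cells it was 0.38 in WT (adjusted p = 0.0072) and 0.0061 in Mini (adjusted p = 0.98).

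**Figure D2:**
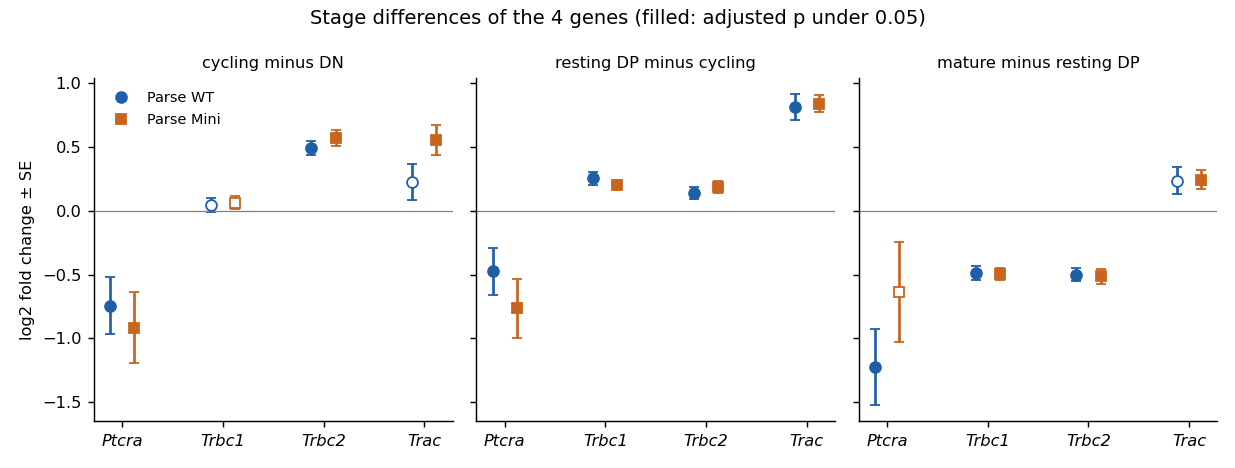
Log2 differences (y axis) of Ptcra, Trbc1, Trbc2 and Trac (x axis) for the 3 steps, 1 panel each, in WT and Mini, as points with bars of 1 SE from edgeR fits with the sample as block, filled where the adjusted p is under 0.05. The kits give the same sign for each gene at each step in these fits, but that of Trbc1 from DN to cycling in WT turns to -0.05 when scaled by total UMIs alone.

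Clusters within a stage also differed. Among cycling cells, the cluster led by Cdc6, Hells and Pola1, genes of DNA replication, held Ptcra at 12.2 ± 2.91 CPM and Trac at 52.4 ± 6.05 CPM in WT, while the cluster led by Aspm, with Cenpf, genes of mitosis, held 6.05 ± 1.255 and 69.7 ± 11.3 CPM. The cluster led by Top2a, whose cells held the most UMIs, stood at 5.26 ± 0.481 CPM of Ptcra and 111 ± 12.6 CPM of Trac. In Mini, Ptcra was 8.21 ± 2.94, 5.45 ± 0.343 and 6.12 ± 2.43 CPM in these clusters and Trac 63.5 ± 8.00, 83.1 ± 10.9 and 124 ± 9.07 CPM. The replication-led cluster was thus the highest in Ptcra and the lowest in Trac among the cycling clusters of both kits. The Top2a-led cluster, with a median of 11025 UMIs per cell, raised all 15 cycling markers but also 6 of 8 CD4 single-positive markers. Whether it holds mixed profiles was not tested. In WT the other cycling clusters did not exceed the DN mean of 70.5 CPM for Trac, which in Mini held for the replication-led cluster only.

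Among resting DP cells, the cluster led by Tspoap1 and Slc7a11 held the least Trac, 88.7 ± 22.6 CPM in WT and 98.2 ± 26.1 in Mini, and the most Trdc, the delta constant gene, at 55.2 ± 26.7 and 42.2 ± 9.01 CPM. The cluster led by Slit3 and Smoc1 held 155 ± 34.7 and 194 ± 24.3 CPM of Trac and 10.8 ± 3.41 and 10.9 ± 8.08 CPM of Trdc. Trdc lies inside the alpha locus and is deleted when alpha rearranges, and cells of these clusters were grouped without either gene. The selected DP cluster led by Myof, Cd5 and Tox held the highest Trac of all, 249.1 ± 50.8 CPM in WT and 278 ± 22.3 in Mini, together with 662 ± 118 and 691 ± 64.3 CPM of Trbc1.

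The mature clusters differed in the beta genes. The cluster led by Gm2682, Ifi213 and Ms4a4b, with a median of 2445 UMIs per cell, held Trbc1 at 295 ± 42.3 CPM in WT and 303 ± 31.8 in Mini, and the other, with Ccr7 among its leading genes and a median of 5636 UMIs, 442 ± 87.7 and 477 ± 27.4 CPM. Trac was 199 ± 34.0 and 202 ± 17.4 CPM in the former and 164 ± 36.0 and 189 ± 23.8 CPM in the latter, with overlapping ranges in both kits. Innate-like cells led by Zbtb16 held 136 ± 29.7 CPM of Trac in WT, and a gamma-delta-like cluster led by Scart2 and Sox13, in 3 WT samples, held 69.6 ± 23.2 CPM of Trac, at the level of thymic B cells, and 534 ± 79.0 CPM of Trbc1 beside 258 ± 25.9 CPM of Trdc.

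Ratios of UMIs remove what is common to a sample's depth. Trac over the sum of Trbc1 and Trbc2 was 0.0947 ± 0.0178 in DN, 0.0966 ± 0.0132 in cycling, 0.154 ± 0.0417 in resting DP, 0.233 ± 0.0710 in selected DP and 0.263 ± 0.0844 in mature cells of WT (n = 4), and 0.0836 ± 0.0197, 0.103 ± 0.0131, 0.162 ± 0.0206, 0.247 ± 0.0154 and 0.272 ± 0.0391 in Mini. Thymic B cells stood at 0.146 ± 0.0486 in WT and 0.185 ± 0.0531 in Mini, and all thymic cells together at 0.153 ± 0.0367 and 0.158 ± 0.0121. By sample the ratio in B cells ran from 0.0833 to 0.202 in WT, against 0.110 to 0.194 for all thymic cells. In Mini it ran from 0.126 to 0.244 against 0.143 to 0.170. APC stood at 0.142 ± 0.0489 in WT and 0.127 ± 0.0309 in Mini. The means of DN cells lay below those of all thymic cells and the means of mature cells above. Trbc2 over Trbc1 was 0.562 ± 0.0377 in DN and 0.784 ± 0.105 in cycling cells of WT, with the later stages between 0.690 and 0.722, and 0.509 ± 0.0855 and 0.726 ± 0.0639 in Mini.

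**Figure D3:**
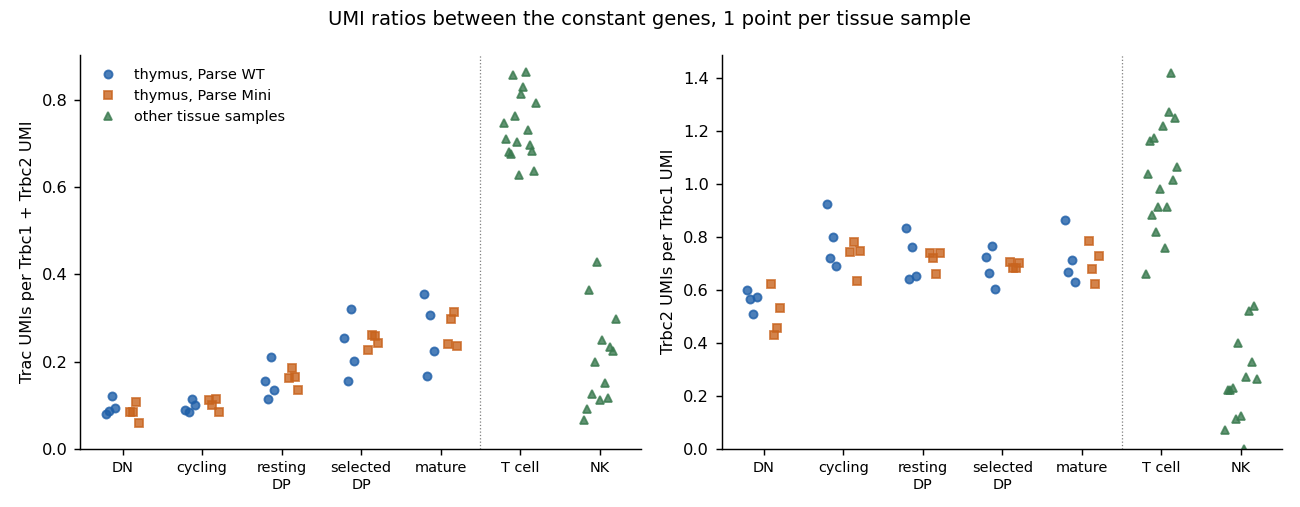
UMI ratios (y axes) of Trac over Trbc1 plus Trbc2 on the left and of Trbc2 over Trbc1 on the right, by thymocyte stage in WT and Mini and in T and NK cells of the other samples (x axis), with a point per sample. Alpha over beta rises from 0.0947 in DN to 0.263 in mature thymocytes of WT and lies between 0.628 and 0.864 in T cells of the other samples.

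The share of cells with a UMI depends on depth, since DN and cycling cells held more UMIs than resting DP cells, with median UMIs per cell of 7404 to 9876 in DN and 1652 to 2731.5 in resting DP over WT samples. Each cell was therefore thinned to 1000 UMIs outside ribosomal RNA, which left out 5 DN, 21 cycling, 3941 resting DP, 1071 selected DP and 233 mature cells in WT. Trac was then found in 5.22% ± 1.68 of DN cells, 7.06% ± 1.10 of cycling, 13.4% ± 3.13 of resting DP, 19.4% ± 2.92 of selected DP and 15.4% ± 2.71 of mature cells of WT (n = 4), against 5.27% ± 3.87 of thymic B cells. Without thinning the shares were 31.0%, 35.2%, 23.3%, 39.9% and 43.0%, so that the order of DN and resting DP cells turned with depth. Ptcra was found in 1.84% ± 1.36 of thinned DN cells, 0.643% of cycling, 0.602% of resting DP and 0.149% of mature cells of WT, against 0.446% of thymic B cells and 9.35%, 4.97%, 1.18% and 0.757% of the unthinned stages. Trbc2 was found in 20.4% of thinned DN cells and 31.1% of cycling cells, and Trbc1 in 35.7% and 35.1%.

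A T cell carries 1 productive beta chain as a rule, so UMIs of 1 cell can be set against each other. Among cells with at least 5 UMIs of Trbc1 and Trbc2 together, at least 90% fell on 1 of the genes in 10.3% of 561 DN cells of WT (95% exact binomial interval 7.94 to 13.2), 12.3% of 4129 cycling cells, 17.7% of 1652 resting DP cells (15.9 to 19.6), 15.8% of 1174 selected DP cells and 11.6% of 850 mature cells. By WT sample the shares ran from 7.80% to 13.4% in DN, 10.2% to 20.3% in cycling and 15.3% to 23.0% in resting DP. They ran from 10.7% to 22.5% in selected DP and 9.85% to 15.4% in mature cells. The sample ranges of DN and resting DP cells thus did not overlap in WT, while those of every other pair of stages did. In Mini the DN range of 11.9% to 19.6% overlapped the resting DP range of 17.9% to 25.2%. The intervals, on pooled cells, do not cover the spread between samples. In Mini the shares were 15.4% of 227, 13.4% of 1785, 22.8% of 1092, 21.2% of 557 and 15.8% of 342 cells. In thymic APC the share was 8.89% of 135 cells in WT and 20% of 30 cells in Mini (7.71 to 38.6). In T cells of the other samples it was 25.2% of 139 cells (18.2 to 33.2), of which 15 were on Trbc1 and 20 on Trbc2. Most cells of each of these classes thus held UMIs of both genes. Of the DN cells of WT on 1 gene, 53 were on Trbc1 and 5 on Trbc2, and of the mature cells 82 and 17. What part the transcripts seen in thymic B cells and APC and the shared exon 1 sequence have in these counts was not tested. The cells with at least 5 beta UMIs were deep, with a median of 12289 UMIs in WT DN cells. The share also depends on the number of beta UMIs, since with fewer than 10 all must fall on 1 gene. With at least 10 beta UMIs it was lower in every stage of both kits. In WT it was 8.82% of 170 DN and 13.7% of 175 resting DP cells. It was 12.5% of 216 selected DP and 8.20% of 183 mature cells. What share, and what split between Trbc1 and Trbc2, sampling of so few UMIs alone would give was not tested.

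**Figure D4:**
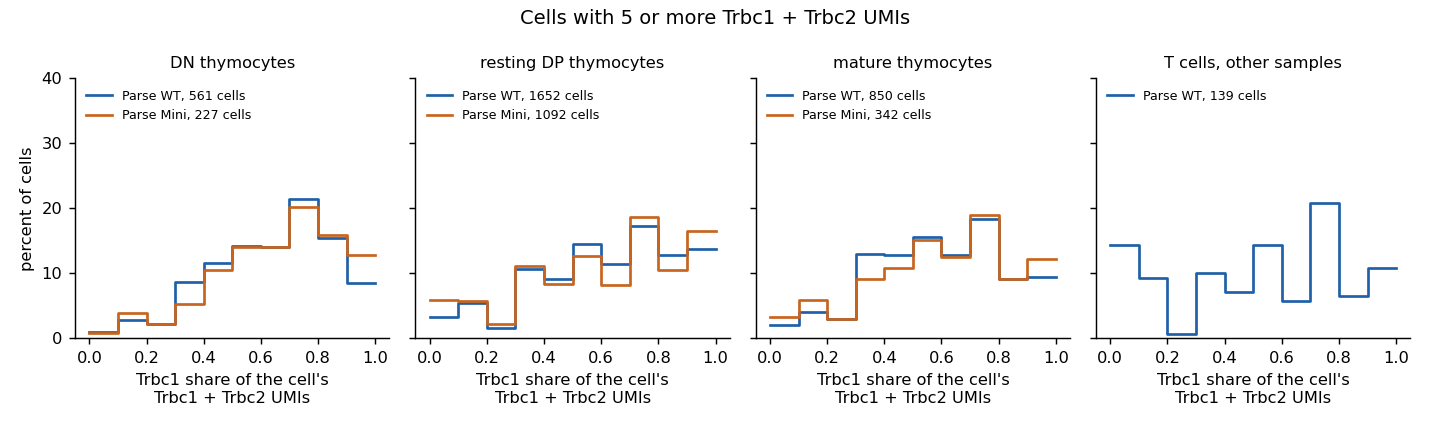
Share of Trbc1 among the Trbc1 and Trbc2 UMIs of single cells with at least 5 such UMIs (x axis, fraction) against the percent of cells (y axis), in panels for DN, resting DP and mature thymocytes and for T cells of the other samples. Cells lie mostly between the ends, with a median Trbc1 share of 0.60 to 0.70.

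In the 16 other samples, T cells were named from T-lineage markers such as Cd3e, at a median of 263 CPM, with clusters again formed without the receptor genes. Trac in T cells ran from 75.5 to 214 CPM with a median of 129 CPM, Trbc1 from 52.1 to 140 CPM with a median of 79.6 CPM, and Trbc2 from 46.7 to 157 CPM with a median of 84.6 CPM. In non-T cells, which here leave out natural killer (NK) cells and a Rag1-led cluster, Trac ran from 2.06 to 13.3 CPM, Trbc1 from 3.33 to 16.9 CPM and Trbc2 from 3.00 to 16.5 CPM. The non-T cells include a cycling class, with a median of 21.7 CPM of Trac. With finer clusters (resolution 2), a cycling cluster of 332 cells raised all 12 T cell markers, so the non-T values may include dividing T cells. T cells were above non-T cells in 16 of 16 samples for each gene, with no overlap of the ranges and median ratios of 21.3 for Trac, 10.53 for Trbc1 and 12.6 for Trbc2. B cells were lower still, with medians of 2.19, 6.11 and 4.51 CPM.

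**Figure D5:**
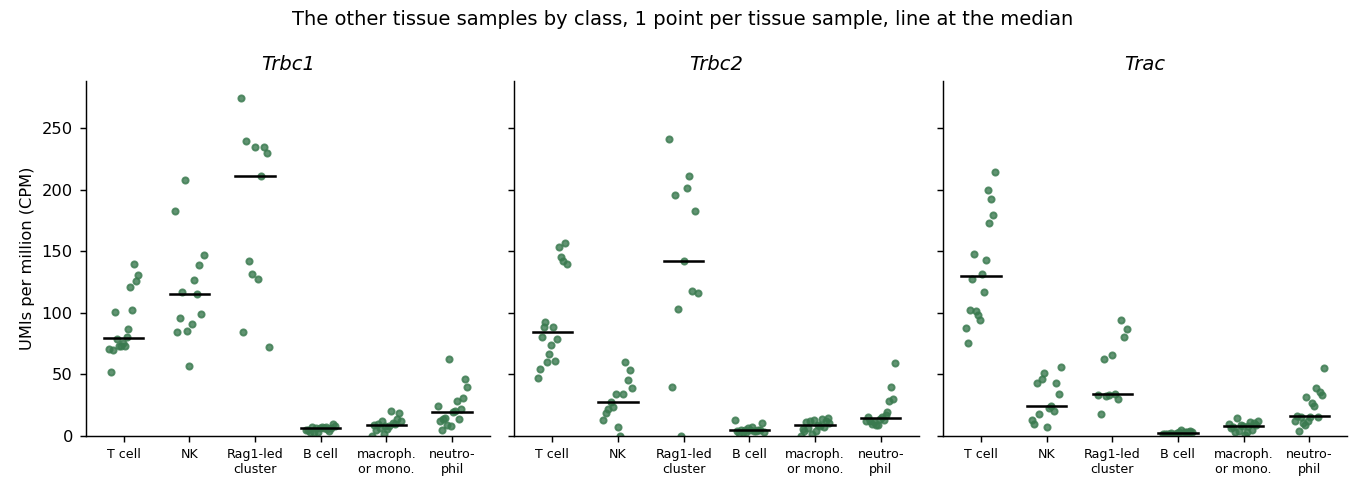
CPM of Trbc1, Trbc2 and Trac (y axis, linear) in the 16 other samples by class (x axis: T, NK, the Rag1-led cluster described below, B, macrophage or monocyte and neutrophil), with a point per sample with at least 20 cells of the class and a line at the median. T cells are above B cells for Trac, Trbc1 and Trbc2, while NK cells reach the T cell level of Trbc1.

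NK cells, which share killing genes with T cells but do not rearrange the receptor loci, held Trbc1 between 57.0 and 208 CPM with a median of 115 CPM in the 13 samples with at least 20 such cells. T cells exceeded them in 3 of 13 samples for Trbc1 but in 13 of 13 for Trbc2, at a median of 27.0 CPM in NK cells, and for Trac, at 24.3 CPM. Trdc stood at a median of 54.1 CPM in NK cells and 4.26 CPM in T cells, and T cells were above in 1 of 13. In NK cells Trbc2 over Trbc1 had a median of 0.231, from 0 to 0.541, against 1.03 in T cells, from 0.660 to 1.42. NK cells thus carried Trbc1 and Trdc without matching Trbc2 and Trac, and Cd3e stood at a median of 59.5 CPM and Cd79a, a B cell gene, at 64.3 CPM in them, and what part of the NK values came with other cells was not tested.

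Thinned to 1000 UMIs, 15.4% of 15443 T cells held Trac, 10.4% Trbc1 and 12.1% Trbc2, against 0.239%, 0.535% and 0.478% of 31804 B cells and 2.61%, 13.1% and 4.27% of 1266 NK cells. Left out as too shallow were 3384 T cells, 7068 B cells and 245 NK cells, and the unthinned shares in T cells were 30.4%, 20.4% and 24.7%. The median depth was 2042 UMIs in T cells, 2222 in B cells and 2047 in NK cells.

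Among T cell clusters, those led by Ikzf2 and Foxp3, genes of regulatory T cells, held a median of 196 CPM of Trac, those led by Cd8a and Cd8b1 152 CPM, and those led by Zbtb16 and Cxcr6 140 CPM. A deep cluster led by Il7r and Lef1 held 63.3 CPM of Trac and 35.0 CPM of Trbc1, and also 169 CPM of Cd79a, a B cell gene whose medians stood between 5.73 and 13.0 CPM in the other T clusters. T cells as a whole were above this cluster in 15 of 15 samples for Trac, Trbc1 and Trbc2. T cells without the CD8 cluster, a choice made after the values were seen, gave medians of 129, 80.2 and 81.7 CPM for Trac, Trbc1 and Trbc2.

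Trac over the sum of Trbc1 and Trbc2 had a median of 0.721 in these T cells, from 0.628 to 0.864, against 0.166 to 0.355 in mature thymocytes of WT from the same kit and run. The ranges did not overlap. The labels do not give the tissue or treatment of the other samples, so cell maturity and sample origin cannot be told apart. Trbc1 differed more than Trac, with 302 to 527 CPM in mature thymocytes of WT. Receptor transcripts in B cells differed too. Thymic B cells of WT stood at mean ratios of 0.595, 0.619 and 0.436 to mature thymocytes for Trbc1, Trbc2 and Trac. In the other samples, T cells stood at median ratios of 15.1, 20.4 and 63.7 to B cells. What part transcripts from other cells had in the difference in alpha over beta was not tested.

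Ptcra was near the limit of detection in the 16 other samples. All T cells of the 16 samples together gave 6 UMIs, or 0.115 CPM (95% exact Poisson interval 0.0423 to 0.251), and B cells 11 UMIs, or 0.0876 CPM (0.0437 to 0.157). NK cells gave 0 UMIs, which allows up to 0.834 CPM. T cells did not differ from B cells beyond counting error and lay below all thymic classes.

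A cluster led by Arpp21, Rag1 and Dntt, genes of DP thymocytes, was found in all 16 other samples, with 2269 cells in all and 7 to 486 cells per sample, 0.266% to 9.23% of the cells. It matched the resting DP markers, with a median of 1088 UMIs per cell. In the 11 samples with at least 20 such cells it held medians of 211 CPM of Trbc1, 142 CPM of Trbc2 and 33.6 CPM of Trac. Trdc had a median of 22.5 CPM there. Mean levels in resting DP thymocytes of WT were higher, at 551, 394 and 143 CPM of Trbc1, Trbc2 and Trac. In this cluster Trac over the beta sum had a median of 0.144, from 0.0645 to 0.462, against a mean of 0.154 in those thymocytes. The Ptcra value of the cluster rested on 4 UMIs, or 1.98 CPM (0.541 to 5.08). These samples shared a split-pool run with the thymic samples, and the study names the other samples as non-thymic. Whether the cells came from the other samples themselves was not tested.

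The partners of the 4 genes in the receptor complex and in proximal signalling, a list of 20 genes all tested, moved mostly upward into resting DP. From DN to cycling cells 10 rose and 4 fell in WT and 9 and 3 in Mini, with medians of 0.20 and 0.16 (log2) against 0.05 and 0.04 over all genes tested. From cycling to resting DP 16 rose and 0 fell in WT (15 and 1 in Mini), with medians of 0.48 and 0.54 against -0.03 and -0.02. From resting DP to mature cells 6 rose and 11 fell in WT (6 and 12 in Mini), with medians of -0.20 and -0.29. Over all genes tested in WT, 22% were called higher and 16.8% lower at the first of these steps. At the next the shares were 28.6% and 34.2%, and at the last 24.5% and 22.4%. In Mini the shares were 18.4% and 15.4%, 29.8% and 33.4%, and 23.7% and 20.8%. The stages were themselves formed from genes such as these.

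By role, the coreceptor genes led the first steps, Cd8a rising by 0.99 ± 0.09 in WT and 0.87 ± 0.07 in Mini into cycling cells and Cd4 by 1.02 ± 0.08 and 1.04 ± 0.05 into resting DP. Of the CD3 chains, Cd3g fell by 0.48 ± 0.06 and 0.44 ± 0.07 into cycling cells and rose by 0.49 ± 0.05 and 0.54 ± 0.05 into resting DP, and Cd247, the zeta chain gene, rose by 0.70 ± 0.04 and 0.66 ± 0.04 there. Into mature cells Cd5, an inhibitor of receptor signalling, rose by 1.29 ± 0.10 and 1.70 ± 0.13, and Fyn, a Src-family kinase gene, by 1.24 ± 0.07 and 1.31 ± 0.05. Syk, a kinase used by the pre-TCR, fell by 1.14 ± 0.09 and 1.19 ± 0.12, and Themis, a selection adaptor gene, by 1.04 ± 0.07 and 1.05 ± 0.05. Every value in this paragraph had an adjusted p of 4.8e-07 or lower (edgeR's quasi-likelihood test).

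Of 20 regulators of receptor rearrangement and Ptcra transcription, 10 rose and 5 fell from DN to cycling cells in WT, 9 rose and 8 fell into resting DP and 5 rose and 11 fell into mature cells, with 10 and 6, 9 and 7, and 5 and 12 in Mini. The medians were 0.30, 0.00 and -0.30 in WT and 0.20, 0.08 and -0.42 in Mini, against 0.05, -0.03 and -0.00 over all genes in WT and 0.04, -0.02 and -0.00 in Mini. Of all genes in WT, 22% were called higher and 16.8% lower at the first step. The shares were 28.6% and 34.2% at the next and 24.5% and 22.4% at the last. In Mini they were 18.4% and 15.4%, 29.8% and 33.4%, and 23.7% and 20.8%. Hes1, a Notch target, fell by 3.39 ± 0.17 and 3.77 ± 0.25 into cycling cells, and Notch3 by 2.11 ± 0.13 and 2.33 ± 0.08. Rag1 rose by 1.33 ± 0.15 and 1.39 ± 0.08 into resting DP and fell by 1.54 ± 0.15 and 1.64 ± 0.09 into mature cells. Tcf12, an E protein gene, rose into cycling cells and resting DP and fell by 0.82 ± 0.06 and 0.83 ± 0.05 into mature cells, and Id2, an inhibitor of E proteins, rose by 1.84 ± 0.19 and 2.27 ± 0.27 there. Several of these genes were stage markers, so their moves describe the stages.

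Of the other receptor constant genes, 4 of the 7 names looked for were in the files. Trdc rose into cycling cells by 0.35 ± 0.12 in WT and 0.33 ± 0.10 in Mini and fell by 2.32 ± 0.11 and 2.37 ± 0.09 into resting DP. The gamma constant genes Trgc1, Trgc2 and Trgc4 fell into cycling cells, Trgc1 by 4.17 ± 0.15 and 3.89 ± 0.21, and fell again into resting DP. The sequences of these genes were not compared here, so the split between them is uncertain. In mature cells all 3 were higher than in resting DP in both kits, with Trgc2 up by 1.71 ± 0.40 and 1.97 ± 0.48.

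The genes most like each member over the 20 stage-by-sample profiles of WT were named among 3825 genes, as Pearson's r on log2(CPM + 1), with Mini in second place. For Ptcra they were Gfra1 (0.956 and 0.915), Tspan2, Cdv3, Fkbp5 and Tns3, and for Trac they were Limd2 (0.930 and 0.913), Tmem59, Nedd9 (0.922 and 0.967), Tspan32 and Ccm2. For Trbc1 they were Spop (0.874 and 0.147), Brd7, Hnrnpc, Sox4 (0.864 and 0.770) and Nsrp1, and for Trbc2 Wapl (0.890 and 0.717), Ppp2r1a, Ube3c, Golm2 and Gpatch8. The likeness for the beta genes was thus weaker in Mini for several of them. Ptcra and Trac had r of -0.82 and -0.94, and Trbc1 and Trbc2 of 0.72 and 0.63. Profiles of 1 sample share its libraries and depth, so these values describe the profiles only.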

How the data were processed

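The authors made UMI counts per gene and cell with split-pipe on mm10 and combined the sublibraries of each kit, and the deposited count matrices were used unchanged. The matrices carry tissue sample names, while the labels name sublibraries only, so thymic samples were recognised by name and by the study's methods. A cell had to hold 500 to 25000 UMIs, with a mitochondrial share of 15% or less, and in each tissue sample the 5% highest in an artificial-doublet neighbour score were left out. Clusters (scanpy 1.11.5, Leiden at resolution 1 on 2000 variable genes, 30 principal components and 15 neighbours) were formed without receptor genes and named from marker lists. UMIs of the ribosomal RNA genes were left out of totals.

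UMIs were summed per tissue sample and stage where at least 20 cells were present. Stages were compared with edgeR 4.0.16 (TMM, filterByExpr with a minimum count of 10, quasi-likelihood test, tissue sample as block), separately per kit, with Benjamini-Hochberg adjustment over all genes tested and a threshold of 0.05. The scripts were tested on simulated data. DESeq2 1.42.0, other scalings, filters, doublet limits and stage definitions were tried as alternatives. Samples pair across stages because each tissue sample was split into its stages. Deviations from the stage means correlated within a sample with a mean r of 0.669 in WT and 0.344 in Mini over 40 pairs each. Between samples the mean r was -0.212 and -0.115. Negative values there follow from subtracting the mean of the same samples, so they are no separate evidence for the pairing. The members and gene lists were chosen with earlier results of these data known. Named list genes were the 3 with the largest rise and the 3 with the largest fall per comparison among those called the same way in both kits, and some further genes (Cd247, Tcf12, Cd3g in resting DP) were chosen after their values were seen, as were the clusters named for their levels. Intervals cover counting error only. The 10x data of the series were not analysed here.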

Additional observations from a re-analysis of the deposited data

Results flagged for a closer look

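In 3 of 40 groups of 4 samples, 1 sample lay apart from the others beyond Dixon's 95% limit, where chance gives about 1 in 20. Ptcra in DN cells was 8.54 CPM in Mini sample 1-A against 14.6 to 15.3 CPM in the others, on 7 UMIs. Ptcra in mature cells was 5.04 CPM in Mini sample 2-B against 1.52 to 1.92 CPM, on 8 UMIs. Trbc1 in resting DP cells was 691 CPM in WT sample 2 against 493 to 512 CPM, and the same sample was the highest in the other thymocyte stages.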

How the results depend on the processing

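Of 336 results for a gene at a step under an alternative, 301 kept direction and call, 20 lost the call, 12 gained one and 3 changed direction, all of them WT Trbc1 into cycling cells, which was not called: -0.045 with total UMIs, -0.013 with the highest 30% of doublet scores left out and -0.027 without WT sample 4 (-0.027 to 0.087 leaving out each sample). All 84 counts of genes called stayed within 1.5 times the main count. Of 280 levels in a stage 31 moved by more than 1 SD, with all UMIs as the denominator in 25 and with a mean over cells in 6, and of 90 shares of cells 85 moved, most of them with the depth of thinning. Without the replicate block, the calls lost were WT Ptcra, Trbc1 and Trbc2 into resting DP (-0.47, 0.24 and 0.13), WT Trbc1 into mature cells (-0.48), Mini Trbc2 into resting DP (0.18) and Mini Trac into mature cells (0.24), so these rest on the pairing. No other call of the 4 genes changed without it, and 3322, 5854 and 4110 genes were called at the 3 steps in WT. With gated cells the values were 1.75 for WT Trac and -1.18 and 0.61 for Mini Ptcra and Trbc1 into cycling cells, 0.11 for WT Trbc2 into resting DP, and 0.38 and 0.0061 for WT and Mini Trac into mature cells. With the highest 30% of doublet scores left out they were -0.80 and 1.36 for WT Ptcra and Trac into cycling cells and 0.13 for WT Trbc2 into resting DP, and with no doublet removal -0.92 for Mini Ptcra into mature cells. At most 10000 UMIs gave 0.61 and 0.24 for WT Trac and Mini Trbc1 into cycling cells and 0.090 and 0.10 for WT and Mini Trbc2 into resting DP. With no low-count filter they were 0.27 and 0.18 for WT Trac and Mini Trbc1 into cycling cells, 0.11 for WT Trbc2 into resting DP and 0.20 for WT Trac into mature cells. DESeq2 gave -0.45 for WT Ptcra into resting DP, and total UMIs 0.28 for WT Trac into mature cells. Leaving out each sample in turn gave -0.82 to -0.65 for WT Ptcra into cycling cells, -0.52 to -0.38 for WT Ptcra into resting DP, 0.18 to 0.27 for WT Trac and 0.17 to 0.29 for Mini Trac into mature cells, 0.15 to 0.25 for WT Trac into cycling cells and -1.11 to -0.48 for Mini Ptcra into mature cells. The causes were not tested. Ptcra counts were low, so its later stages were limited by depth.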
